A study of Mus musculus with 15 samples.

Results

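The comparison set the RNA binding sites of SAM68 in day 3 embryoid bodies against those in undifferentiated stem cells. Its members were the 2742 genes, of 7949 with a site on any day of the series, that held 5 or more sites over the day 0 and day 3 lists together. Every gene was counted by its Ensembl ID, and its share is the part of a day's sites that fell in it. A gene with no day 0 site is called gained, a gene with no day 3 site lost, and a gene with sites on both days kept. By this rule 120 genes were gained (4.38% of the 2742), 121 were lost (4.41%) and 2501 were kept (91.2%). The minimum cut through a dense range of values, since 333 genes held exactly 5 sites and 469 exactly 4. Just inside it was Ptprt, with 0 sites on day 0 and 5 on day 3. Just outside were Ctnnd2, with 1 and 3, and Kalrn, with 3 and 1.

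The study mapped SAM68 in the E14 line of mouse embryonic stem cells by iCLIP2, which reads the crosslinked nucleotide from the place where the reverse transcriptase stops. Day 0 cells were kept without feeders in 15% serum with LIF and the 2 inhibitors CHIR-99021 (GSK3) and PD0325901 (MEK), which hold stem cells in the naive state. Day 3 bodies were formed in hanging drops of 20 µl in medium with 10% serum, and were dissociated before crosslinking, which the labels state for the bodies and not for the stem cells. Both groups came from the same line, no gene was altered, and each had 5 libraries per the labels. Medium, culture format, dissociation and day cannot be told apart in this design. The authors deposited 1 list per day, so libraries cannot be compared with each other and the days were not tested against each other. Intervals are exact 95% intervals, cover counting error only, and treat sites of a gene as independent, which they are not. The lists hold 29740 sites on day 0 and 28266 on day 3. The day 10 list of 74287 sites, from bodies grown in spheroid plates, was not used to choose genes and is given beside the results. Fewer cells of a type, less RNA per cell and less binding cannot be told apart here, and RNA abundance was not used.

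SAM68, encoded by Khdrbs1, belongs to the STAR family of KH-domain proteins, which bind short A- and U-rich motifs of the UAAA type and act in splicing and RNA processing. On leaving LIF and the inhibitors, stem cells shut down transcription factors of the naive state such as Esrrb, Tfcp2l1 and Zfp42. They then pass through a formative or primed state marked by Fgf5, Otx2 and Dnmt3b before germ layer genes come on.

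Sequence at the sites could be read where a site fell within 300 bases around an annotated RefSeq start (250 before to 50 after, GRCm38.p6). This held for 96 day 0 sites (0.323% of the list) and 119 day 3 sites (0.421%). In the windows of other genes' starts, 66 distinct sites were read as 29 bases centred on the site, on the transcript strand. This set mixes sites inside genes with sites near the bound gene's own start where the starts of neighbours lie close together, as for Rpl9 and Rps2. The motif TTTAAA was present in 8 of the 66 (12.1%), and in all 8 it began at the central base of the site or 1 base before it. Of the 8, the 7 in genes with 5 or more sites are shown with TTTAAA in capitals, from gained to lost to kept genes, because they show where the motif lies at the site. The remaining one, in Arpc4, lies in a gene with 0 sites on day 0 and 1 on day 3. Foxn3 (a forkhead repressor, gained with 0 sites on day 0 and 21 on day 3) is shown at 2 day 3 sites, chr12:99340816-99340844 and chr12:99391966-99391994 on the minus strand. Jam2 (an adhesion molecule of cell junctions, lost with 82 and 0 sites) is shown at a day 0 site at chr16:84822801-84822829 on the plus strand. Cobl (an actin nucleator, 140 and 4 sites), chr11:12384531-12384559 minus, and Cd9 (a tetraspanin, 13 and 2 sites), chr6:125481065-125481093 minus, are shown at day 0 sites, as is the X-linked pseudogene ENSMUSG00000031325 (105 and 2 sites), chrX:103256751-103256779 minus. Map7 (a microtubule-binding protein, 4 and 13 sites) is shown at a day 3 site at chr10:20208325-20208353 plus.
Foxn3 first site: gtagattgtcacagTTTAAAaagcatgtc
Foxn3 second site: agatttctcaacttTTTAAAaagttcacc
Jam2: aaaatcctttataaTTTAAAagaattcca
Cobl: taaaggtctagcaTTTAAAtgaccaagcc
Cd9: ttcttgtgtagtaTTTAAAcaaaagtaac
ENSMUSG00000031325: aaataatgcttgatTTTAAActatgttgc
Map7: agtcctattcagtTTTAAAgggtgattcc
The motif starts at or next to the central base in each of these stretches, but not everywhere in the lists. Among sites of day 10 alone read in the same way, it did so in 2 of the 6 with the motif in other genes' windows and in 2 of 5 at own starts. By day, TTTAAA was found in 4 of 41 such sites on day 0 (9.76%, 2.72 to 23.1) and 4 of 34 on day 3 (11.8%, 3.30 to 27.5). All 29-base stretches of the same windows held it at 3.08% and 2.85%, and all stretches of the 32851 start windows at 1.21%. The motif is its own reverse complement, so the count is the same on both strands. The shorter TAAA, which TTTAAA contains, was found at 19.5% of day 0 and 14.7% of day 3 sites, near the 17.1% and 12.5% of the same windows. Exons were not annotated in the table used, so whether a site is exonic or intronic is not known here.

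Sites at the gene's own start looked different, and many of them belonged to ribosomal protein genes, a group set apart here after its values were seen. TTTAAA was found in 3 of 120 distinct own-start sites (2.50%), in 2 of them at or next to the central base. By day it was found at 3.64% (0.443 to 12.5) of own-start sites on day 0 and 2.35% (0.286 to 8.24) on day 3. All 29-base stretches of the same windows held it at 1.38% and 1.30%, less often than the windows of other genes' starts. Shown are 3 starts with a site at the same position on day 0 and day 3 and an overlapping site on day 10. Their longest run of C and T is in capitals. They are Rplp2 at chr7:141447635-141447663 plus, Rpsa at chr9:120127772-120127800 plus and Rps18 at chr17:33955649-33955677 minus, all subunits of the ribosome. For contrast the own-start day 3 site of the gained gene Slc7a7, an amino acid transporter, at chr14:54417737-54417765 minus, is shown in lower case.
Rplp2: ctgcgtcagcgTCTTCCTTTCgccgccgg
Rpsa: tttccggccgcccgTCCTTTCgcgctacc
Rps18: gtcacttccgCTCTCTCTTCCacaggagg
Slc7a7: tagggttggaatttttggtcagtccgcgt
On day 0, 28 sites lay at the start of 23 ribosomal protein genes, with a median longest C/T run of 13 bases and no TAAA. Of these, 24 (85.7%) overlapped a day 3 site and 27 (96.4%) a day 10 site. On day 3 there were 45 such sites in 33 genes, of which 27 (60.0%) overlapped a day 0 site. Own-start sites of other genes were shared less, 10 of 27 (37.0%) from day 0 and 10 of 40 (25%) from day 3, with a median run of 6 bases on both days. Of the 61 ribosomal protein genes with 5 or more sites, 48 were within 2 times between the days, 12 were higher on day 3, 1 of them gained, and 1 was lower, with 268 sites on day 0 and 333 on day 3. Over all 2742 genes, 55.7% were within 2 times, 23.0% gained or at least 2 times higher, and 21.3% lost or at least 2 times lower.

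Among the gained genes with most day 3 sites were a scaffold protein, surface proteins, an enzyme and a carrier of heparan sulfate, and a potassium channel subunit. The 120 genes held 1357 sites, 4.80% of the day 3 list, with a median of 7 sites per gene and a maximum of 90. That maximum belonged to Grip1, a PDZ scaffold protein, with 0 sites on day 0, 90 on day 3 and 455 on day 10. The interval of its ratio of day 3 to day 0 share began at 25.1. Adam23, a non-catalytic disintegrin of the cell surface, held 0, 62 and 0 sites, with an interval from 17.2. Sulf1, which removes sulfate groups from heparan sulfate, held 0, 60 and 6 sites, from 16.6. Setbp1, which binds the SET oncoprotein, held 0, 51 and 66 sites. Plxdc2, a transmembrane receptor with a plexin domain, held 0, 44 and 41 sites, and Kcnq3, a potassium channel subunit, 0, 31 and 0. Sites on day 3 alone or on both later days thus occurred side by side among the genes with most day 3 sites. Of the other 6 of the first 12, Aff3, a transcription elongation factor, held 27 day 3 sites, Gpc3, a glypican, 25, Robo1, the receptor of Slit ligands, 24, Emb, the membrane glycoprotein embigin, 23, Adgrl2, an adhesion receptor of the latrophilin family, 23, and Stag2, a cohesin subunit, 21. Gpc3 and Adgrl2, like Grip1, held a larger share of the day 10 than of the day 3 list, with 459 and 80 sites on day 10. Aff3 and Stag2 held 33 and 29 sites on day 10, and Robo1 and Emb 60 and 54.

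**Figure D1:**
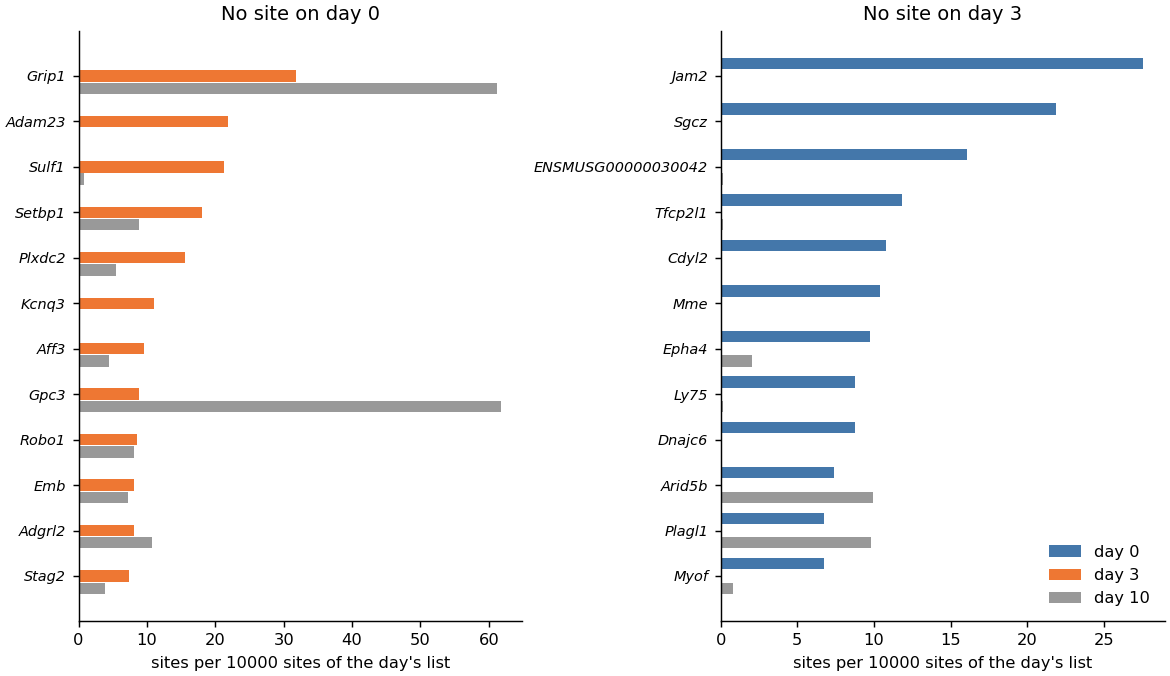
Sites per 10000 sites of the day's list (horizontal axis, starting at 0) for the 12 gained genes with most day 3 sites (left, none of them with a day 0 site) and the 12 lost genes with most day 0 sites (right, none with a day 3 site). Adam23 and Kcnq3 have no day 10 bar, Grip1 and Gpc3 have a longer bar on day 10, and on the right Arid5b and Plagl1 have a longer bar on day 10 than on day 0.

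Across the whole class, 90 gained genes (75%, 66.3 to 82.5) held at least 1 day 10 site and 66 (55.0%) held 5 or more. Over all 2742 genes, 90.0% held a day 10 site. Among gained genes with 10 or more day 3 sites, 11 named genes had no site on day 10. They were Adam23, Kcnq3, Dnmt3b, Fgf5, Pdzd4, Kcnj3, Slc7a7, Dpp6, Nav2, Sema3e and B3galt1. Besides the de novo DNA methyltransferase Dnmt3b and the growth factor Fgf5, this group held potassium channel genes (Kcnq3 and Kcnj3), an auxiliary subunit of potassium channels (Dpp6) and a semaphorin (Sema3e). Gained genes were long, with a median RefSeq span of 112 kb (quartiles 55.0 and 235) against 56.5 kb over all members. The spans of gained genes were also longer than those of kept genes at equal numbers of sites: among genes with exactly 5 sites the medians were 83.1 kb for gained and 33.6 kb for kept genes, and among those with 20 or more they were 321 and 90.5 kb. Lost genes lay between them, with medians of 45.4 and 145 kb, so they too were longer than kept genes. Of the gained genes, 13 lay on the X chromosome (10.8%) against 93 of all 2742 (3.39%). They included the glypican Gpc3, the cohesin subunit Stag2, the heparan sulfate 6-O-sulfotransferase Hs6st2, the Polycomb-associated corepressor Bcor and Ftx, a non-coding RNA of the X-inactivation centre.

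Gained genes on day 3 held a larger part of their sites near the start than lost genes on day 0 or genes with many sites on both days. The difference is given here without a test. Along the RefSeq span, 52.2% of their day 3 sites fell in the first 40%, and 49.3% without Grip1. Averaged over 116 genes the share was 47.2%. For lost genes on day 0 it was 41.9% of sites, and for genes with 10 or more sites on both days 42.1% on either day. The first 10% of the span held 14.9% of a gained gene's day 3 sites on average and 14.3% of its day 10 sites, and the stretch from 50% to 60% held 6.90% and 6.51%. Grip1 sites on day 3 ran from 0.270% to 54.9% of its 634 kb span on chromosome 10, and those of Kcnq3 from 1.1% to 56.4% of its span on chromosome 15. Other gained genes with many sites had them further along. The median day 3 site lay at 74.4% of the span in Adam23, 60.5% in Adgrl2 and 55.5% in Emb. In Robo1, the 24 day 3 sites lay between 63.5% and 81.5% of a 1020 kb span on chromosome 16, and the 60 day 10 sites between 62.5% and 91.3%.

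**Figure D2:**
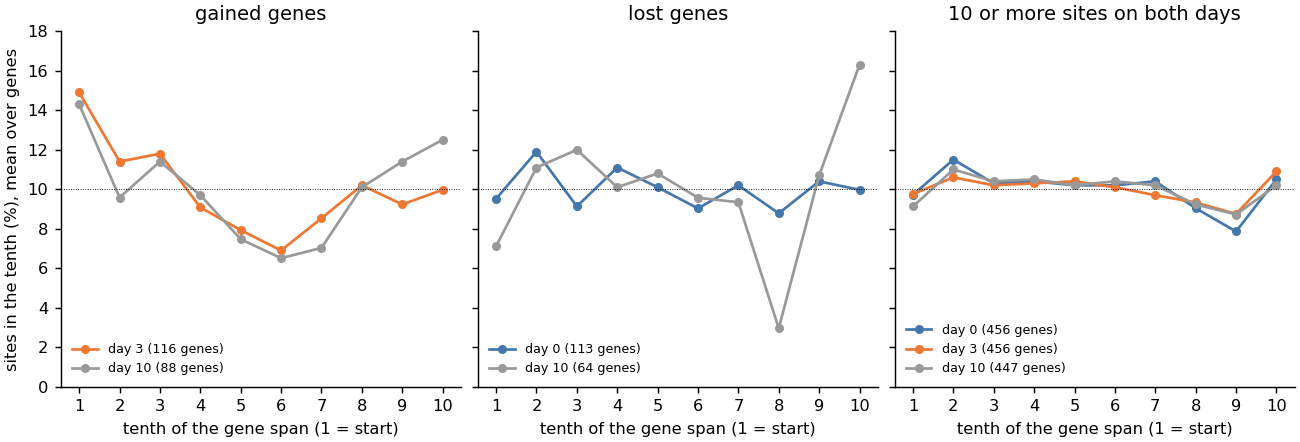
Mean share of a gene's sites (%, vertical axis) in each of 10 equal segments of its RefSeq span, from the start (1) to the end (10), for gained genes, lost genes and genes with 10 or more sites on both days, by day; the dotted line marks 10%. Gained genes run from 14.9% in segment 1 to 6.90% in segment 6 on day 3, while the genes with many sites on both days stay between 7.86% and 11.5% on day 0 and day 3.

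Lost genes included factors of the naive state, adhesion and surface proteins, and genes that held sites again on day 10. The 121 genes held 1377 sites, 4.63% of the day 0 list, and 11 of them were not protein-coding. Jam2 had 82, 0 and 0 sites over the 3 days in order, and the interval of its ratio of day 3 to day 0 share ended at 0.0484. Sgcz, a sarcoglycan of the muscle membrane complex, held 65, 0 and 0 sites, with an interval up to 0.0614. These sites lay between 58.9% and 91.0% of a 1144 kb span on chromosome 8. An unnamed protein-coding gene, ENSMUSG00000030042, held 48, 0 and 1 sites between positions 82635584 and 82702561 of chromosome 6. Tfcp2l1, a transcription factor of the naive state, held 35, 0 and 1 sites. Cdyl2, a chromodomain protein, held 32, 0 and 0, and Mme, the peptidase neprilysin, 31, 0 and 0. In these 6 genes the day 10 list thus held at most a single site. Epha4, an ephrin receptor, held 29, 0 and 15 sites, Ly75, an endocytic receptor, 26, 0 and 1, and Dnajc6, the clathrin-uncoating cofactor auxilin, 26, 0 and 0. Arid5b and Plagl1, both DNA-binding transcriptional regulators, had 22, 0 and 74 and 20, 0 and 73 sites. Myof, a membrane-repair protein of the ferlin family, held 20, 0 and 6.

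A day 10 site was present in 67 lost genes (55.4%, 46.1 to 64.4), and 36 (29.8%) held 5 or more. These shares were below those of gained genes and below the 92.4% (91.3 to 93.4) of kept genes. Kept genes with the lower share held a day 10 site in 81.8% of 462 cases. The order of gained, lost and kept held at 20 or more sites, with 78.6% of 14 gained, 58.3% of 12 lost and 95.4% of 698 kept genes. Still, 10 lost genes held 20 or more sites on day 10. The largest such number was in Hmga2, a chromatin architectural protein, with 6, 0 and 117 sites. Zeb1, a repressor of E-cadherin, held 17, 0 and 78 sites, and Gng12, a G protein subunit, 15, 0 and 62. In 18 named lost genes with 10 or more day 0 sites there was none on day 10. Lost genes had a median span of 72.5 kb, and 4 of them (3.31%) lay on the X chromosome. Non-coding classes were small. Of 44 lincRNA genes with 5 or more sites, 6 were lost and 3 gained, and of 16 antisense genes 4 were lost and none gained. Among all 2742 genes, 4.41% were lost and 4.38% gained.

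Among kept genes, 511 held at least 2 times the share on day 3 (18.6% of the 2742), 462 held at most 0.5 times (16.8%), and 1528 (55.7%) lay between. With shares scaled by the median ratio of genes in place of list length there were 506 higher and 576 lower genes. Which count is larger thus depends on the scaling. Scaled by list length, 3 and 6 sites gave a ratio of 2.10, called higher, while 10 and 5 gave 0.526, called within 2 times. The higher and lower counts are therefore not symmetric at such small site numbers. Site totals were 2013 and 6763 in the 511 higher genes, on day 0 and day 3, and 7313 and 1903 in the 462 lower genes. Thus 23.9% of the day 3 list lay in kept genes with the higher share and 24.6% of the day 0 list in those with the lower share. The largest ratios among genes with 20 or more sites included a guidance ligand and several nuclear regulators. Slit3, a ligand of Robo receptors, had 1, 63 and 116 sites, a ratio of 66.3 (11.5 to 2659). Phf21a, a reader of unmodified histone H3 in the LSD1 corepressor complex, held 4, 90 and 91 sites, a ratio of 23.7 (8.93 to 88.8). Klf12, a repressor of the Krüppel-like family, held 2, 50 and 12 sites, 26.3 times. Other large ratios rested on a single day 0 site each. Tspan5, a tetraspanin, held 40 day 3 sites, Qser1, a glutamine- and serine-rich nuclear protein, 26, and Pphln1, a subunit of the HUSH silencing complex, 23.

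Among the 8 smallest ratios were a pseudogene, 2 naive state genes, and genes of the cytoskeleton, amino acid metabolism, ubiquitin transfer and the germ line. ENSMUSG00000031325, a unitary pseudogene on the X chromosome, had 105, 2 and 0 sites, a ratio of 0.0200 (0.00240 to 0.0742). Cobl held 140, 4 and 1 sites, 0.0301 times (0.00808 to 0.0787), and Bcat1, which transaminates leucine, isoleucine and valine, 67, 2 and 0, 0.0314 times. Tex14, needed for the bridges between germ cells, held 47, 1 and 1 sites, and Esrrb, an orphan nuclear receptor of the naive state, 39, 1 and 0. Tet2, which oxidises 5-methylcytosine, held 37, 1 and 8 sites and Arih2, a ubiquitin ligase, 35, 1 and 9. Meis2, a homeodomain transcription factor, held 36, 1 and 186 sites, so its sites were few on day 3 alone.

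The 8 genes described next were picked for many sites and a ratio near 1, so their levels are a description. Smyd3, a lysine methyltransferase, held 102 and 94 sites (0.970, 0.725 to 1.30), and Setd5, a SET-domain protein, 67 and 69 (1.08, 0.763 to 1.54). Kansl1, a subunit of the NSL acetyltransferase complex, held 72 and 67 sites, and Kcnq1ot1, the imprinted antisense RNA, 75 and 62. Rad51b (homologous recombination), Mllt10 (a DOT1L cofactor), Tcf7l1 (a Wnt pathway repressor) and Ankrd11 (a chromatin cofactor) held 88 and 77, 85 and 66, 64 and 70, and 74 and 57 sites.

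**Figure D3:**
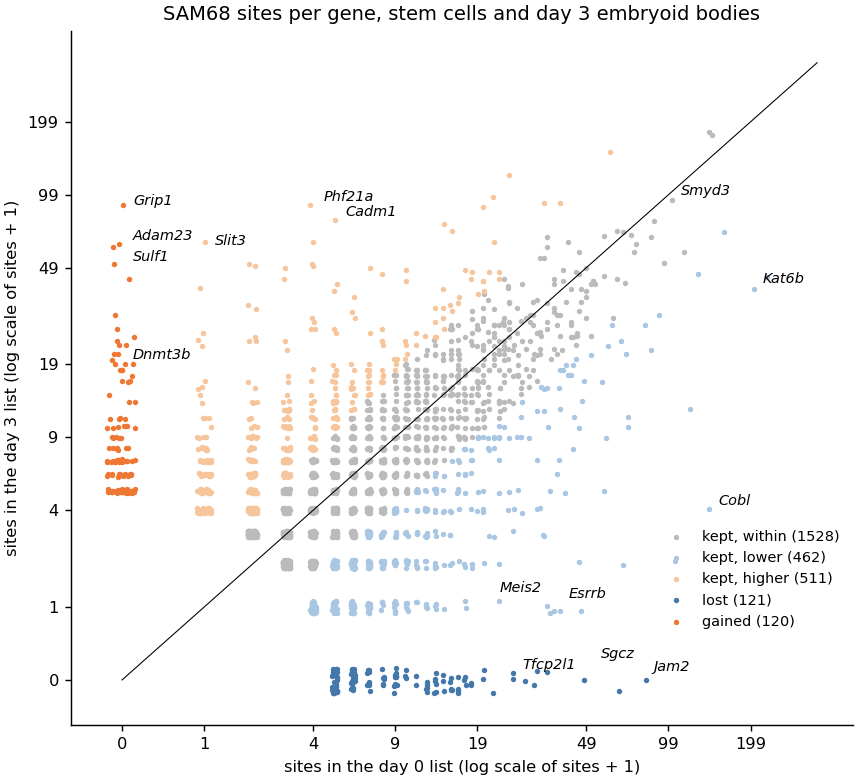
Number of SAM68 sites of each of the 2742 genes in the day 0 list (horizontal) and the day 3 list (vertical), both on a log scale of sites + 1 with small random offsets so that points do not hide each other, coloured by class. The line marks equal numbers of sites. The 120 gained genes lie on the left edge and the 121 lost genes on the lower edge, and Smyd3 lies near the line with 102 and 94 sites.

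Nearly all genes of the naive state with 5 or more sites held fewer sites on day 3. Nearly all such genes of the formative and primed state held more. Both lists were written with earlier results of these data known, so their directions are not independent evidence. Of 12 naive state genes with 5 or more sites, 4 were lost, 7 more were lower and 1 was within 2 times. Their sites numbered 325 and 23, and the lost gene Jam2, a member of the list, gave 82 of the 325. Over all members of the comparison, 583 genes (21.3%) were lost or lower and 631 (23.0%) gained or higher. The interval of the ratio lay below 1 for 10 of the 12, against 9.96% over all genes. The median log2 ratio, with 1 site added to each count, was -3.23 for the list and 0.07 over all genes. Nr5a2, an orphan nuclear receptor, had 46 and 2 sites. Zfp42, the marker REX1, held 20 and 2 sites, the T-box factor Tbx3 13 and 0, and Nanog 10 and 3, the last with an interval that reaches 1.23. Tdh, threonine dehydrogenase of naive cell metabolism, held 24 and 10 sites, the most day 3 sites in the list. The member within 2 times was Il6st, the LIF co-receptor gp130, with 3 and 2 sites.

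Of 8 formative and primed genes, 6 were gained, 1 was higher and 1 was within 2 times, 33 and 103 sites, and a median log2 ratio of 2.88. The interval lay above 1 for 5 of them, against 8.90% over all genes. Dnmt3b held 0 and 20 sites, Fgf5 0 and 19, Sox11, a SOX transcription factor, 0 and 8, Otx2, a homeodomain factor, 0 and 6, and Grhl2, an epithelial grainyhead factor, 0 and 6. Of these 5, Sox11 had 7 day 10 sites and the others none. The sixth gained member, the forkhead factor Foxp1, held 0, 5 and 23 sites, and Nodal, a secreted signal, was higher with 2 and 4. The member within 2 times was Etv5, an ETS factor active in both states, with 31, 35 and 4 sites. Another 11 list members had fewer than 5 sites, together 3 on day 0 and 21 on day 3. Among them were Pou3f1 (OCT6) with 0 and 3 and Zic2 with 0 and 4. Etv4, with 2 and 0, and Epha2, with 1 and 0, went the other way. A further 5 members had no site on day 0 or day 3. General pluripotency genes were mostly held on both days. Of 8, 4 were within 2 times, 3 were gained or higher and 1 was lower, with 172 and 223 sites and a median of 0.59. Jarid2, a partner of the Polycomb complex PRC2, held 35 and 60 sites (1.80, 1.17 to 2.82), Trim71, an RNA-binding ubiquitin ligase, 14 and 30 (2.25, 1.16 to 4.60), and Cdh1, E-cadherin, 13 and 25 (2.02, 0.997 to 4.31). Pou5f1 (OCT4) held 1 and 2 sites, and Sox2 had no site in either list.

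**Figure D4:**
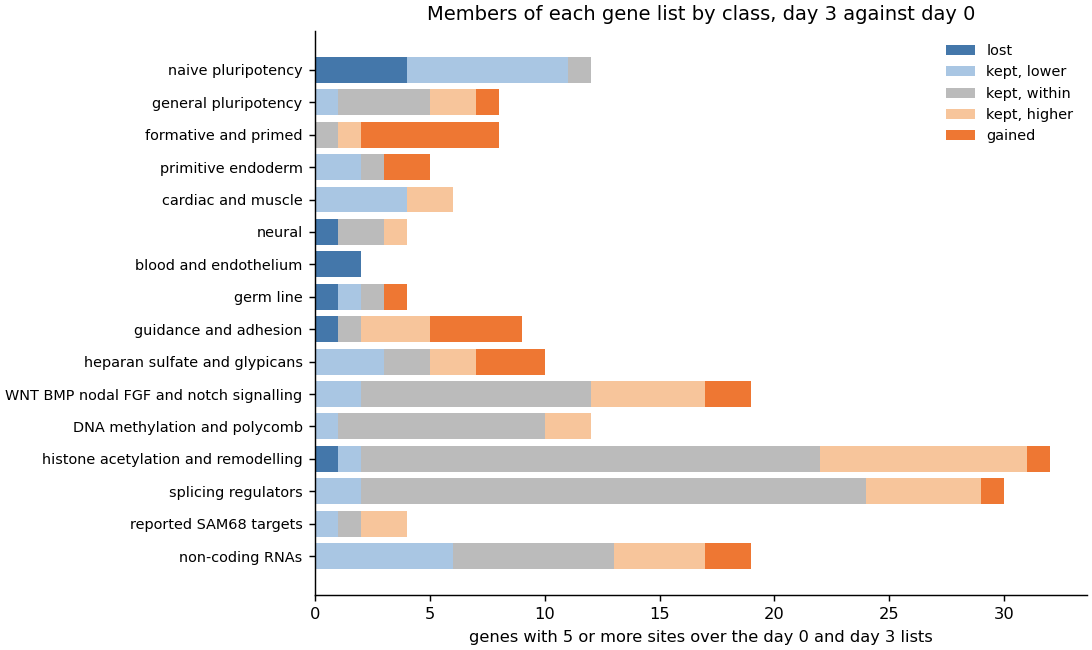
Number of genes with 5 or more sites over both days (horizontal axis) in each of 16 gene lists, split by class of day 3 against day 0. Blue classes fill 11 of 12 naive pluripotency genes, orange classes 7 of 8 formative and primed genes and 7 of 9 guidance and adhesion genes, and grey fills most splicing and chromatin genes.

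Few transcripts of germ layer genes held sites. No gene of the primitive streak and mesendoderm list reached 5 sites: Fgf8 and Lefty2, both secreted signals, held 4 and 2 sites on day 3 and none on day 0, and 24 of the 26 genes, T, Eomes and Mixl1 among them, had no site on either day. Of 5 primitive endoderm genes, the laminin genes Lama1 (9 and 1 sites) and Lamc1 (26 and 4) were lower, and the endocytic receptors Cubn (0 and 5) and Lrp2 (0 and 7) were gained, with a list median of 0.49. Another 5 members under the minimum, Gata4, Dab2, Lamb1, Col4a1 and Col4a2, held 0 sites on day 0 and 13 on day 3 in all. Of 6 cardiac and muscle genes, 4 were lower and 2 higher, with a median of -1.26. Tead1, a Hippo pathway factor, held 69 and 21 sites (0.320, 0.187 to 0.528), Dmd, dystrophin, 20 and 4, and Tpm1, tropomyosin, 1 and 10. Among 4 neural genes, Rims2 and Grik3, both of synapses, held 35 and 35 and 36 and 20 sites, and the adhesion molecule Ncam1 was lost with 7 and 0, with a list median of -0.34. Both blood and endothelium genes with 5 or more sites were lost, the receptor Kit with 9 and 0 and the adhesion molecule Pecam1 with 6 and 0. Of 4 germ line genes, 1 was gained, 1 was lost, 1 was lower and 1, Rnf17, a Tudor-domain protein of the piRNA pathway, was within 2 times with 51 and 25 sites. These lists describe bound transcripts and name no cell type.

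Guidance and adhesion genes held 40 and 340 sites, with 4 of 9 gained, 3 higher, 1 within 2 times and 1, Epha4, lost. The median log2 ratio was 3.79. The ligand Slit3 and its receptor Robo1 were on the same side, as was Unc5b, a netrin receptor, with 1 and 11 sites (11.6, 1.68 to 498). Another 8 list members had fewer than 5 sites, together 8 on day 0 and 8 on day 3. Of these, Slit2 (2 and 0), the netrin Ntn1 (3 and 1), Cdh4 and Cdh11 (1 and 0 each) held fewer on day 3. Epha1 and Efnb2 (0 and 1 each) and Sema6a (0 and 4) held more, and Ephb1 held 1 and 1. Cadm1, an immunoglobulin adhesion molecule, had 5, 78 and 20 sites, a day 3 to day 0 ratio of 16.4 (6.74 to 52.0). The ephrin Efna5 held 0, 7 and 211 sites, while its receptor Epha4 held 29, 0 and 15. Grip1 alone gave 90 of the 340 day 3 sites. The list includes Grip1, Adam23 and Slit3, which earlier results on these samples had already shown, so its direction is not independent evidence.

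Among genes of heparan sulfate and its carriers, 3 of 10 were gained, 2 higher, 3 lower and 2 within 2 times. They held 76 and 243 sites, with a median of 0.59. For all genes the shares were 23.0% gained or higher, 21.3% lost or lower and 55.7% within 2 times. Ext1, which polymerises the chain, held 20 and 88 sites (4.63, 2.82 to 7.95). The chain-modifying enzymes split: Sulf1 held 0 and 60 sites and Hs6st2 0 and 10, while their relatives Sulf2 and Hs6st1 held 5 and 1 and 8 and 2. The carriers split as well, with Gpc3 at 0 and 25 and Gpc6 at 20 and 39 (2.05, 1.17 to 3.71), but perlecan (Hspg2) at 7 and 2.

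Of 19 signalling genes of the WNT, BMP, nodal, FGF and notch pathways, 10 were within 2 times, a share near the 55.7% over all genes, with 2 gained, 5 higher and 2 lower and a median of 0.56. Among the 5 higher ones, Tgfbr1, Smad2 and Spred1 each had a ratio of 2.10, that of exactly 2 times the sites. The gained ones were the receptor Ror1, with 0 and 10 sites, and the notch coactivator Maml3, with 0 and 10. Its DNA-binding partner Rbpj held 45 and 23 sites (0.538, 0.311 to 0.908). Ror2, the second receptor of that family, held 23 and 10, and Gli2, the hedgehog effector, 46 and 10 (0.229, 0.103 to 0.459). The core WNT genes Ctnnb1, Gsk3b and Apc held 9 and 9, 12 and 12, and 25 and 20.

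Lists of chromatin regulators held members on both sides. Of 12 DNA methylation and Polycomb genes, 9 were within 2 times, against 55.7% over all genes. The rest were 2 higher and 1 lower, with a list median of -0.46. Suz12, a core subunit of PRC2, held 43 and 17 sites (0.416, 0.222 to 0.745) and Kdm2b, which recruits a PRC1 complex to CpG islands, 5 and 17 (3.58, 1.27 to 12.4). Asxl2, a Polycomb group partner, held 53 and 42. Of 32 histone acetylation and remodelling genes, 20 were within 2 times, near the 55.7% over all genes, 9 were higher, 1 was lower, 1 gained and 1 lost, with a median of 0.32. Kat6b, an acetyltransferase, had 204, 40 and 23 sites. On the other side, the chromodomain remodeller Chd9 held 34, 92 and 17 (2.85, 1.90 to 4.35), Arid2, a subunit of the PBAF complex, 6, 37 and 32 (6.49, 2.71 to 18.8), and Nipbl, the cohesin loader, 17, 48 and 107 (2.97, 1.68 to 5.51). Kdm4c, a demethylase, held 18 and 44 sites (2.57, 1.46 to 4.73).

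Of 30 genes for splicing regulators, 22 were within 2 times, against 55.7% over all genes, 5 higher, 2 lower and 1 gained. They held 493 and 484 sites, with a median of 0.12. The STAR genes Qk and Khdrbs1 were among the exceptions, and the relatives Khdrbs2 (1 and 0) and Khdrbs3 (0 and 4) had fewer than 5 sites. Qk, quaking, had 81, 28 and 125 sites (0.364, 0.228 to 0.565), and Khdrbs1, the transcript of SAM68 itself, 5, 12 and 48 (2.53, 0.828 to 9.15). Msi2, the RNA-binding protein musashi 2, held 39, 91 and 160 (2.46, 1.67 to 3.67). Esrp1, an epithelial splicing regulator, was gained with 0, 19 and 8 sites. Rbm25 and Rbm39, both splicing factors, held 40 and 43 and 41 and 35. Among transcripts known as SAM68 targets from earlier work, Rps6kb1, the S6 kinase, held 2 and 10 sites (5.26, 1.12 to 49.4), Bcl2l1, the BCL-X gene, 6 and 2, and Ptbp2, a splicing repressor of neurons, 12 and 16.

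Non-coding RNAs went both ways, with 2 of 19 gained, 4 higher, 6 lower and 7 within 2 times and a median of -0.19. Shares over all genes were 23.0% gained or higher, 21.3% lost or lower and 55.7% within 2 times. Dleu2, a microRNA host transcript, had 58, 9 and 122 sites (0.163, 0.0711 to 0.332), and Neat1, the scaffold of paraspeckles, 32, 7 and 50 (0.230, 0.0857 to 0.531). Both were thus lowest in sites on day 3. The pluripotency-associated RNAs split, since Platr22 held 5 and 39 sites (8.21, 3.23 to 26.7) and Platr14 13 and 2 (0.162, 0.0177 to 0.715). At the X-inactivation centre, Ftx held 0 and 10 sites and Tsix, the antisense RNA of Xist, 2 and 9.

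Within genes, most day 3 sites were not at the nucleotides bound on day 0. Of 28266 day 3 sites, 5159 (18.3%, 17.8 to 18.7) shared at least 1 nt with a day 0 site on the same strand, 2409 (8.52%) were identical, and 11818 (41.8%) lay within 500 nt. In kept genes 20.0% were shared. Shared day 3 sites of kept genes overlapped a day 10 site in 2702 of 4660 cases (58.0%), against 3496 of 18664 (18.7%) for those not shared. Sites in gained genes were near the latter, with 257 of 1357 (18.9%, 16.9 to 21.1). Day 0 sites of kept genes that were not shared overlapped a day 10 site in 3558 of 20116 cases (17.7%). Day 0 sites in lost genes lay below that, with 102 of 1377 (7.41%, 6.08 to 8.92), but 54 of the 121 lost genes held no day 10 site at all. Sites stood mostly alone. On day 3, 6.63% of gained and 6.98% of kept gene sites had another site of the gene within 50 nt. The values on day 0 were 6.03% for lost and 9.08% for kept gene sites.

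Position along the gene was compared in the 469 genes with 10 or more sites on both days, of which 456 had a RefSeq span. They held 41.5% of the day 0 list and 40.5% of the day 3 list. Of the 469, 390 were within 2 times in share, against 55.7% over all 2742 genes. The minimum on both days leaves out gained and lost genes, so this number follows in part from the choice of genes. Sites were spread along the span on both days. The position of the median site differed by a median of 5.76% of the span (quartiles 1.84 and 13.7), or 4.78 kb, towards the end in 244 genes and towards the start in 211. It differed by less than 5% of the span in 211 genes (46.3%) and by 25% or more in 40 (8.77%). The largest gap between the cumulative site distributions of the 2 days had a median of 22.7%. A day 3 site lay a median of 0.405 kb from the nearest day 0 site, and 21.4% of a gene's day 3 sites overlapped one.

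The genes with the largest differences had sites at both ends, and the balance between the ends differed between days. Chd2, a chromatin remodeller on chromosome 7, held 15 and 14 sites, with the median at 83.6% of its 115 kb span on day 0 and 30.1% on day 3. In the first, middle and last of 3 equal segments it held 6, 1 and 8 sites on day 0 and 8, 0 and 6 on day 3, so a few sites set the median on either side of the empty middle. Usp34, a deubiquitinase on chromosome 11, had its median at 85.1% and 37.6% of 187 kb, with 6, 3 and 24 sites by segment on day 0 and 12, 4 and 10 on day 3. Its day 10 median, over 91 sites, was at 74.1%. Rnf17 on chromosome 14 differed the other way, with medians at 18% and 60.5%, and 30 of its 51 day 0 sites but 11 of its 25 day 3 sites lay in the first segment. Ktn1 (the kinesin receptor kinectin), Eif4b (a translation initiation factor) and Golm2 (a Golgi membrane protein) had medians at 74.0% and 27.1%, 78.3% and 33.4%, and 72.9% and 29.8%. In kb the largest difference was in St6galnac3, a sialyltransferase, with 216 kb towards the start, at 66.1% and 25.2% of its span. Its last segment held 14 of 28 sites on day 0, 3 of 29 on day 3 and 3 of 30 on day 10. Of 31 genes that differed by 25% or more and held 10 or more day 10 sites, the day 10 median was closer to that of day 3 in 14.

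At the other end, Ddx17, an RNA helicase with a 19.1 kb span on chromosome 15, had its median site at 71.0% on both days, and 13 of its 17 day 3 sites (76.5%) overlapped a day 0 site. Ddx6, a helicase of processing bodies, had the largest shared part, 8 of 10 sites, with 14 of 17 day 0 and 9 of 10 day 3 sites in the last segment of the gene. Tle4, a Groucho corepressor, also had equal medians, at 55.7%, but 1 of 27 day 3 sites (3.70%) overlapped a day 0 site, and day 3 sites also lay in stretches without a day 0 site. Tlk1, a kinase of chromatin assembly, had medians at 53.4% with 8 of 25 sites (32.0%) shared. In 8 genes no day 3 site overlapped a day 0 site, among them Top2a, topoisomerase II, with 12 and 11 sites. In Kat6b, with 204 and 40 sites, 21 of the 40 (52.5%) overlapped a day 0 site, and the medians lay at 38.5% and 25.3% of 173 kb. In Ext1, with 20 and 88 sites, 6 of the 88 (6.82%) overlapped a day 0 site, and the medians lay at 28.5% and 31.1%.

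**Figure D5:**
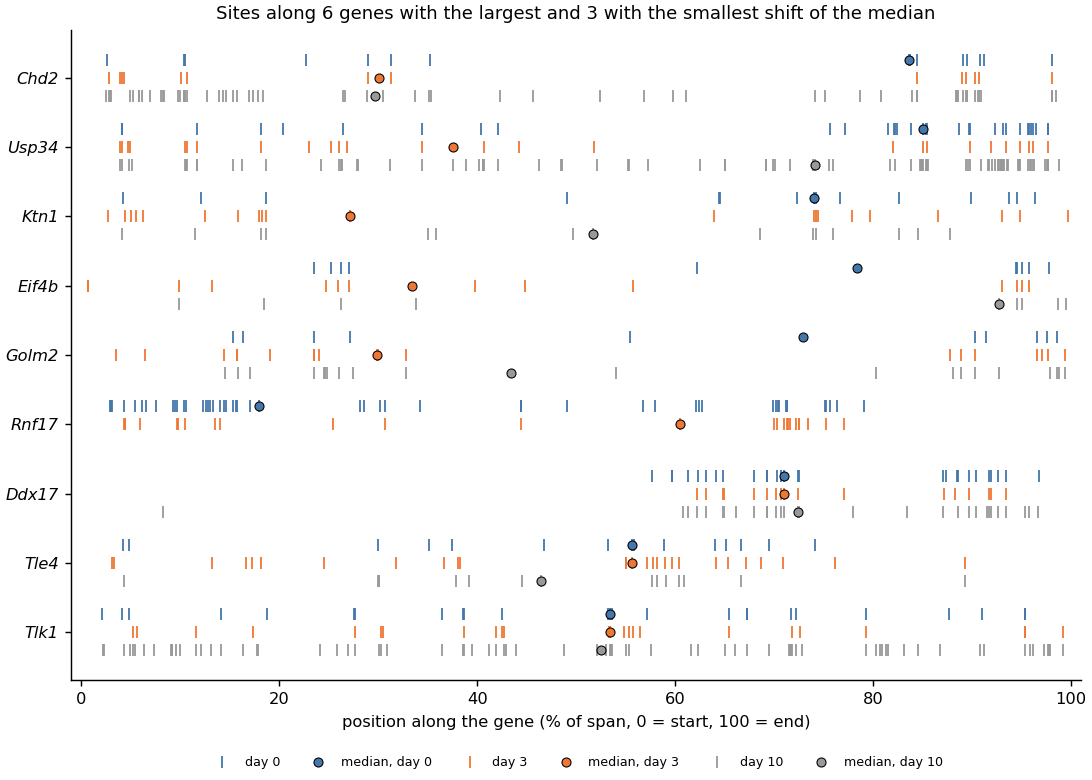
Sites along 9 genes as ticks by day (horizontal axis, % of the RefSeq span from start to end), with circles at the median site: 6 genes in which the median differs most and 3 in which it differs least. In Chd2 the medians, 83.6% and 30.1%, lie on either side of a middle with 1 site on day 0 and none on day 3, while in Ddx17 both medians are at 71.0%.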

How the data were processed

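SAM68 iCLIP2 libraries of E14 cells, 5 per day per the labels, were represented by 1 deposited list of 5 nt sites per day. Per the file headers and columns, a site carries a gene ID, a gene class and a score, and the deposited score is 0 for every site, so no value per site or library was available and sequencing depth is unknown. The submitters' processing notes name SAMtools 1.22.1, bedtools 2.31.1, UMI-tools 1.1.6, STAR 2.7.11a, MultiQC 1.31 and FastQC 0.12.1 with the builds GRCm38.p5 and GRCh38.p14. The sources used here do not give the site caller or the way libraries were combined.

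IDs took the symbol of the RefSeq gene (GRCm38.p6) of the same class and strand whose span held at least 80% of their sites, which named 7518 of 7949 IDs (94.6%) and 2641 of the 2742 genes compared. Of sites of coding IDs, 98.9% lay in a coding span, and 46.6% when moved by 1 Mb. Spans, positions and start windows are RefSeq's. Counts, shares, exact conditional binomial 95% intervals, log2 ratios (pseudocount 1) and overlaps (at least 1 nt, same strand) were computed with Python 3.11.15, NumPy 2.4.6, pandas 2.3.3 and SciPy 1.17.1, plots with matplotlib 3.10.9, and the steps were tested on simulated data.

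The members and gene lists were chosen with earlier results of these data known. Genes were named by rule: the 12 gained and 12 lost genes with most sites, the 8 largest and 8 smallest ratios among kept genes with 20 or more sites, the 8 level genes (ratio 0.8 to 1.25) with most sites, the 6 largest and 3 smallest differences of position, and up to 5 members per list. A few genes that meet the rule are not reported here. Ribosomal protein genes, genes with a sequence shown, and other genes named in the text were chosen after their values were seen. Alternatives varied the minimum, the fold, the scaling, the overlap distance and the measure of position.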

Additional observations from a re-analysis of the deposited data

How the results depend on the processing

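No paired analysis was possible because each day is 1 pooled list, and for the same reason no library could be left out. Scaling by the median ratio gave 506 higher and 576 lower kept genes. Of 46 alternatives to 9 results, 21 stayed within 1.5 times of the count or within counting error and 25 did not. With a minimum of 10 sites there were 38 gained, 45 lost and 1490 kept genes, of which 266 were higher and 275 lower. With 20 sites the numbers were 14, 12, 698, 118 and 118. With 3 sites there were 278 gained, 269 lost and 827 higher genes. A fold of 4 left 201 higher and 172 lower genes, and an interval that excludes 1 left 160 and 180. Allowing 1 site in the other list gave 250 gained and 262 lost genes. With 5 or more day 10 sites required, 55.0% of gained and 29.8% of lost genes counted as held. Day 3 sites shared with day 0 were 8.52% for identical positions, 22.9% within 50 nt and 21.0% in genes with 10 or more sites on both days. The largest gap between the distributions along a gene had a median of 22.7%, against a shift of the median of 5.76%. The smaller counts at higher minimums follow from fewer genes. For the other settings the cause was not tested. Genes with 5 sites rest on few counts: a gained gene with exactly 5 has an interval from 0.964.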

Other observations

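On the plus strand of chromosome 4, 4 genes of one region, with other genes between them, differed in direction. They were picked after their values were seen. Ror1 (100095791 to 100444806) held 0 sites on day 0, 10 on day 3 and 92 on day 10, and Cachd1 (100776679 to 101003749), an auxiliary subunit of calcium channels, 4, 51 and 45. Downstream of these, Ak4 (101416478 to 101467771), an adenylate kinase, held 17, 0 and 0, and Dnajc6 (101496648 to 101642799) 26, 0 and 0.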
